A study of Mus musculus with 30 samples.

Results

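Brain endothelial cells (ECs) carrying a stabilized form of beta-catenin were compared by RNA-seq with wild-type (WT) brain ECs after isolation by method A and 8 days in culture. The comparison holds 4 libraries, WT replicates 1 and 2 and stabilized replicates 1 and 2, of the 30 samples in the series, of which 14 are RNA-seq libraries. Tests were run on the 8 cultured libraries of 36 cycles, and the libraries of acutely isolated and GFP-negative cells gave reference levels. The WT cells came from C57BL/6J mice, and the stabilized cells from mice with the genotype Ctnnb1 flex3/+;Pdgfb-CreER;Tie2-GFP, given 100 µg of 4-hydroxytamoxifen (4HT) at postnatal day 10. In these mice 4HT switches on a Cre recombinase expressed from the Pdgfb regulatory sequences, which are active in ECs, and Cre removes exon 3 from the flex3 copy of Ctnnb1, the gene for beta-catenin. Stabilization, the 3 alleles and the strain background differ together between the groups and cannot be told apart, and the study's text can be read either way on whether the C57BL/6J mice received 4HT. For method A the brains of 6 mice at 2 months of age were digested with papain, and the vascular fragments were plated in 4 wells. Puromycin, which brain ECs export, was used to kill other cells. The study's Results instead place the harvest of the stabilized mice 10 weeks after 4HT, so that the ages of the groups may differ. All mice are labelled male. The replicates of a group are wells, so that the p-values measure the spread between wells and not between animals. Cultures made by method B, in which the brains were homogenized and then digested with collagenase and dispase, served as a second comparison with no shared library. There the WT cells (replicates 5 and 6) came from Ctnnb1 flex3/+;Tie2-GFP mice and the stabilized cells (replicates 3 and 4) from the same genotype as in method A, and both had received 4HT, so that the groups of method B differ by the Pdgfb-CreER allele. All 8 libraries were sequenced as paired reads of 36 cycles, and method B below refers to these 4 libraries of it. WT replicates 3 and 4, also of method B but read for 150 cycles, entered no test. A figure legend of the study places WT cultures in the methods differently, and its Methods were followed here.

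In canonical Wnt signaling a Wnt ligand binds a Frizzled receptor with an Lrp5 or Lrp6 coreceptor, which stops a destruction complex of Apc, Axin and the kinases Gsk3 and casein kinase from marking beta-catenin for degradation. Beta-catenin then enters the nucleus and activates transcription with the DNA-binding proteins of the TCF/LEF family. In brain ECs this pathway is required for the formation and upkeep of the blood-brain barrier (BBB), and its feedback targets Axin2, Apcdd1 and Lef1 are widely used as readouts.

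The deleted exon is shown because it is the lesion that defines the stabilized group. Exon 3 of transcript Ctnnb1-201 lies at chr9:120950522-120950749 (GRCm38, plus strand) within the coding sequence and holds 228 bases, or 76 codons with a remainder of 0, so that its loss leaves the reading frame intact. The capitals mark codons 33, 37, 41 and 45, which encode the serine, serine, threonine and serine that the kinases of the destruction complex phosphorylate.

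Ctnnb1 exon 3: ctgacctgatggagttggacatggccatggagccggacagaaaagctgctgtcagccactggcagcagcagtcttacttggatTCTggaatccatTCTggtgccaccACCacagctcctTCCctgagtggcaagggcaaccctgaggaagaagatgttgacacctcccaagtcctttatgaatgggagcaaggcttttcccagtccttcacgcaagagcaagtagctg

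The annotation behind the deposited files has no Ctnnb1 transcript that joins exon 2 to exon 4, so the deletion itself cannot be read from them. The study reported reads across that junction in each of its stabilized cultures and none in its WT cultures. Total Ctnnb1 RNA (ENSMUSG00000006932.17, chr9:120929216-120960507) was at 1635 and 1685 normalised CPM (counts per 1000000, scaled between libraries by the TMM method) in the WT wells and at 1299 and 1207 in the stabilized wells. The stabilized wells were both below the WT wells, with a log2 fold change of -0.41 ± 0.08 (SE, n = 2 wells per group, adjusted p = 0.00538), which is less than 2-fold. In method B the log2 fold change of Ctnnb1 was 0.25, without a call. Pdgfb, whose regulatory sequences drive the Cre, had a log2 fold change of 0.43 ± 0.09 (adjusted p = 0.00666).

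The libraries of method A differed in more than genotype. The estimated counts summed to 24284843 and 33382007 in the WT wells and to 57248000 and 53213098 in the stabilized wells, and protein-coding genes took 70.0% and 84.3% of them in WT against 91.8% and 91.6%. A ribosomal RNA gene (CT010467.1) took 13.5% and 3.24% of all counts in the WT wells but 0.0272% and 0.0310% in the stabilized wells. A second gene with ribosomal sequence, AY036118, took 5.12% and 1.60% against 0.00196% and 0.00249%. Mitochondrial transcripts took 1.001% and 1.205% of counts in the WT wells and 2.205% and 2.58% in the stabilized wells. The fold changes reported here were therefore computed over protein-coding genes alone. The part of these RNA differences in the results was not tested.

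The sex label did not match the transcripts of all libraries. Xist, the RNA made from the inactive X chromosome of female cells, had 2512 and 4306 counts in the WT wells of method A and 0 and 2 in the stabilized wells. The Y-linked genes Ddx3y, Eif2s3y, Kdm5d and Uty together stood at 128 and 128 normalised CPM in the WT wells and at 290 and 275 in the stabilized wells. The WT wells of method A thus held both Xist and Y-linked RNA, at 43.5% (Ddx3y) to 53.2% (Kdm5d) of the Y-linked level of the stabilized wells, whereas the stabilized wells held Y-linked RNA with next to no Xist. The 4 libraries of method B with 36 cycles had Xist (45.7 to 88.4 per 1000000 counts) and nearly no Y-linked RNA (0.102 to 0.337 normalised CPM). Sex therefore differed between the groups of method A along with stabilization and strain and cannot be told apart from them, and it differed between the tested libraries of the methods as well. It also differed within method B, since WT replicates 3 and 4 had 0 Xist counts and 5803 and 5248 counts of the 4 Y-linked genes. Since both WT wells of method A carried Xist, no value could be computed without such a well.

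**Figure D1:**
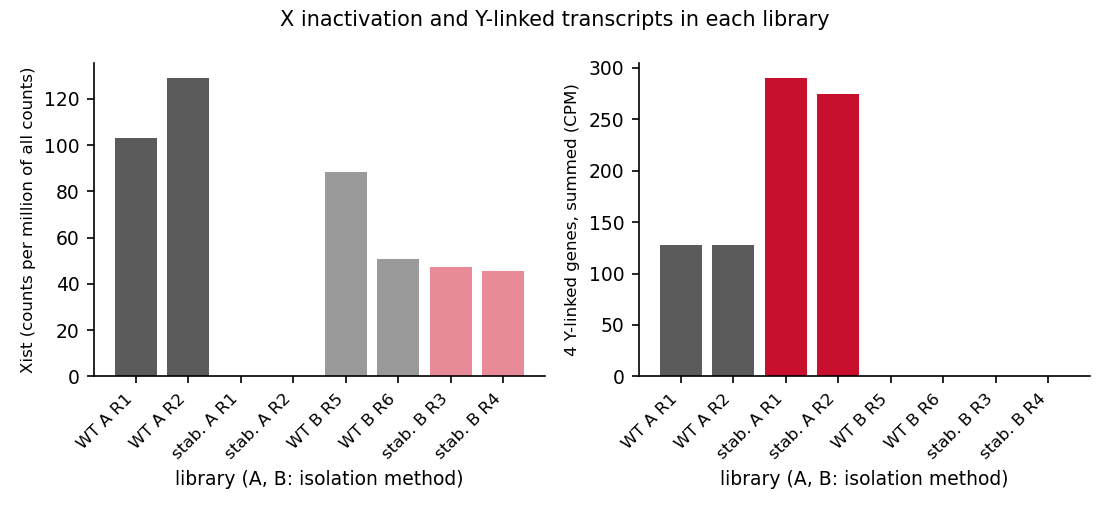
Xist (left, per 1000000 counts) and the summed normalised CPM of 4 Y-linked genes (right) in each of the 8 libraries, 1 bar per well. Both WT wells of method A show both bars, the stabilized wells of method A show the Y-linked bar (290 and 275) with next to no Xist, and the 4 libraries of method B shown have the Xist bar with nearly no Y-linked RNA.

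Endothelial markers were high in both groups. The 13 pan-endothelial markers summed to 11690 and 11960 TPM (transcripts per 1000000, here of protein-coding RNA) at their lowest and highest in the WT wells and to 11430 and 11860 in the stabilized wells, against 233 and 254 in the GFP-negative brain cells of the series. Each of the 13 markers was at or above 1 TPM in all 4 wells. Single markers moved within these sums, with 7 higher and 3 lower in the stabilized wells at an adjusted p under 0.05 in edgeR's test. Of all genes tested, 29.2% were higher and 26.8% lower by this measure. Emcn was at 5320 and 4630 TPM in the WT wells and at 3450 and 3260 in the stabilized wells. Cdh5 was at 376 and 473 against 1160 and 1230.

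By the quasi-likelihood test of edgeR, adjusted after Benjamini and Hochberg, 692 of 12848 genes tested were called higher (5.39%) and 118 lower (0.918%) in the stabilized wells, or 6.3% in either direction. A gene was called where its adjusted p was under 0.05, its fold change was over 2 and its TPM, as deposited, was at least 5 in both wells of the higher group. Without the last condition 1173 genes were higher and 361 lower. An adjusted p under 0.05 at any fold was reached by 3757 genes that were higher (29.2%) and 3441 that were lower (26.8%), and the median log2 fold change over all genes was 0.01. With library sizes in place of the TMM scaling, 556 genes were called higher and 187 lower, so that 74.8% of the calls were higher in place of 85.4%, and the median of all genes shifted to -0.08. The interval of each fold change rests on 2 wells per group.

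The calls of method A were seldom shared with method B, where 138 of 12835 genes were called higher (1.08%) and 36 lower (0.28%). Of the genes called higher in method A, 28 were also called higher in method B, which is 4.05% of the calls of method A and 20.3% of those of method B. One gene, Perp, was called lower in both, or 0.847% and 2.78% of the calls. In the other direction, 2 genes called higher in method A (Cryab and Fat1, named after their values were seen) were called lower in method B, and Slco1a4 was called lower in method A and higher in method B. The 692 genes called higher in method A had a median log2 fold change of 1.29 there and 0.02 in method B, and 358 of the 689 that could be tested in method B had a positive sign. For the 118 lower genes the medians were -1.16 and -0.02, with the same sign for 59 of 117. The interaction term, the log2 fold change of method A minus that of method B, was called in 2049 of 13356 genes (15.3%). Of these, 1214 were higher (9.09%) and 835 lower (6.25%) in method A. Since the WT wells of the methods differ in strain and alleles, these cannot be told apart from stabilization in this term. For 493 of the 692 and 81 of the 118 genes it was called in the direction of the change in method A. The same wells of method A entered both calls, so these counts are given as a description.

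The libraries that stood apart were more often the WT wells. Among the genes called higher in method A, both WT wells of method A lay below all 6 other cultured libraries of 36 cycles for 573 genes (82.8%, against 26.0% of all genes tested), whereas both stabilized wells lay above the 6 others for 262 (37.9%, against 16.4%). Among the genes called lower, the WT wells lay above all others for 87 (73.7%, against 24.0% of all tested) and the stabilized wells below all others for 56 (47.5%, against 16.3%). These shares include the contrast that made the calls and are given as a description.

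**Figure D2:**
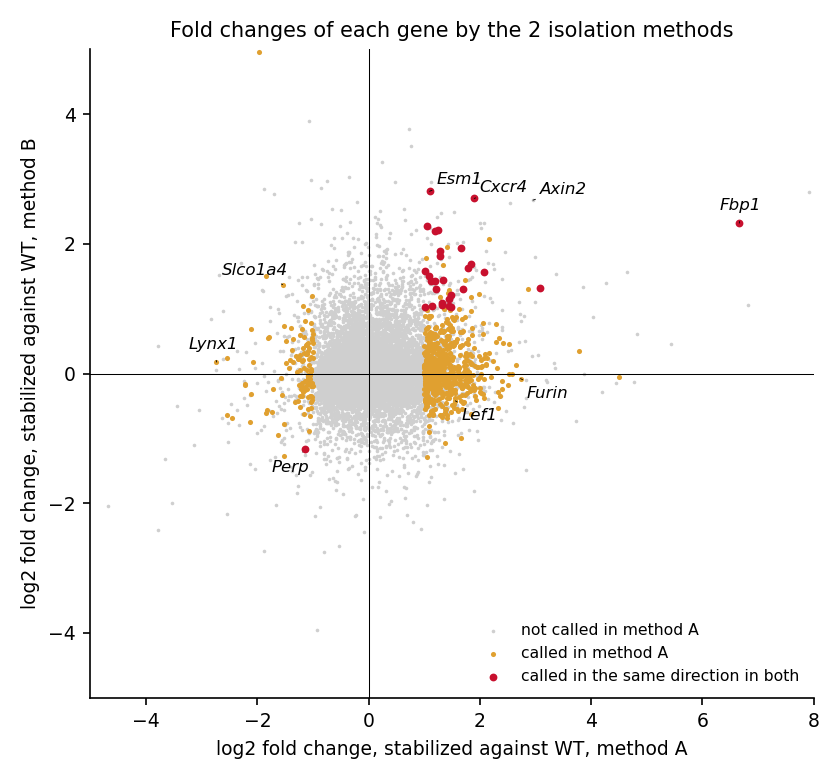
Log2 fold change of stabilized against WT cultures in method A (x axis) and in method B (y axis), 1 point per gene tested in both (12496 genes, of which 11 lie outside the axes). Most called genes of method A (orange) spread around 0 on the y axis, and the 28 genes called higher in both methods and Perp (red) lie in the quadrants where the signs are the same.

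The 7 genes that the study lists as regulated by beta-catenin were the direct readout of stabilization. Of these, 2 (Apcdd1 and Lef1) were called higher in method A and none lower, beside 5.39% and 0.918% of all genes. The study described such genes, citing earlier work, as responding to or regulating beta-catenin signaling. It showed them in these same cultures, so their direction here is not independent evidence. It called their expression extremely low in the stabilized cultures, which to the study implied that the signaling had failed to be activated. From scatter plots and principal component analyses it also reported next to no effect of stabilization on RNA or open chromatin. The calls given here come from another tool and from the wells of method A alone. An adjusted p under 0.05 with a higher level was reached in method A by 6 of the 7, beside 29.2% of all genes. In method B it was likewise reached by 6 of the 7, beside 2498 of 12835 genes. The median log2 fold change was 1.36 in method A and 0.72 in method B, beside 0.01 and -0.02 over all genes tested. A TPM of 5 or more was reached by 3 of the 7 in any well of method A.

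Axin2 (ENSMUSG00000000142.15, chr11:108920349-108950783, GRCm38), a scaffold of the destruction complex and a feedback inhibitor of the pathway, was at 0.864 and 0.653 normalised CPM in the WT wells and at 6.03 and 5.51 in the stabilized wells. The log2 fold change was 2.95 ± 0.22 (7.75-fold, adjusted p = 5.35e-04). Axin2 was not called because its TPM, 1.86 and 1.85 in the stabilized wells, was below the minimum. In method B it was at 0.674 and 0.792 in WT and at 4.81 and 4.75 in the stabilized wells, a log2 fold change of 2.67. The fold changes of the methods did not differ detectably (interaction 0.26 ± 0.28, adjusted p = 0.46), and the levels in either group were alike between the methods. In acutely isolated brain ECs the TPM of Axin2 was 51.8 and 47.0, above all cultures.

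Apcdd1 (ENSMUSG00000071847.13, chr18:62922231-62961179), a membrane inhibitor of Wnt signaling, was at 65.0 and 46.6 normalised CPM in the WT wells and rose to 149 and 137 in the stabilized wells. Its log2 fold change was 1.36 ± 0.16 (adjusted p = 0.00111). In method B, Apcdd1 was at 144 and 159 in WT and 252 and 231 in the stabilized wells, with a log2 fold change of 0.66. The stabilized wells of method A were thus level with or below the WT wells of method B, and the lowest levels were those of the WT wells of method A.

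Lef1 (ENSMUSG00000027985.14, chr3:131110471-131224356), a DNA-binding partner of beta-catenin and a target itself, was at 5.40 and 7.01 normalised CPM in the WT wells and rose to 17.5 and 19.7 in the stabilized wells. The log2 fold change was 1.56 ± 0.15 (adjusted p = 7.25e-04). In method B the order was the opposite, 34.3 and 27.1 in WT and 24.9 and 21.3 in the stabilized wells, with a log2 fold change of -0.42 that did not pass the test (adjusted p = 0.0567). The difference between the methods was 1.95 (log2, interaction). All 4 libraries of method B lay above the stabilized wells of method A.

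Tcf7, another DNA-binding partner, had a log2 fold change of 2.39 ± 0.22 (adjusted p = 7.11e-04) from 0.864 and 1.31 to 6.10 and 5.71 normalised CPM. Nkd1, a feedback inhibitor that acts on Dishevelled, had one of 1.25 ± 0.16 (adjusted p = 0.00135). Both were below the TPM minimum, and both had smaller values in method B (0.72 and 0.59). Notum, a secreted esterase that inactivates Wnt ligands, was near its detection limit in method A, with 5 and 11 counts in the WT wells and 13 and 23 in the stabilized wells, and its log2 fold change of 0.12 ± 0.50 left no detectable difference. In method B that of Notum was 2.42. Spock2, a matrix proteoglycan, had a log2 fold change of 0.34 ± 0.11 (adjusted p = 0.038) in method A and of 1.39 in method B. With the trend on transcript length removed, the value of Spock2 in method A turned to -0.11 (adjusted p = 0.583).

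**Figure D3:**
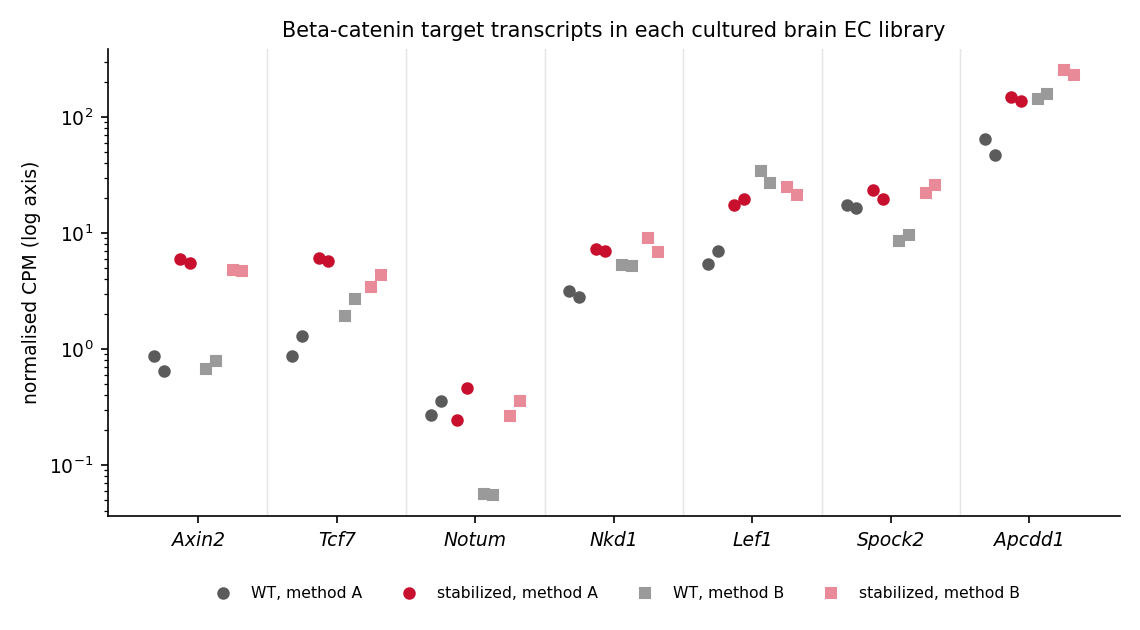
Normalised CPM (log axis) of the 7 beta-catenin target transcripts in the 8 libraries, 1 point per well. Axin2, Apcdd1 and Tcf7 separate the stabilized from the WT wells by both methods, Lef1 is higher in the stabilized wells in method A (17.5 and 19.7 against 5.40 and 7.01) and lower in method B, and Notum and Spock2 separate them more in method B.

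In the stabilized wells of method A, all 4 TCF/LEF factors were higher at an adjusted p under 0.05, beside 29.2% of all genes. Their median log2 fold change was 1.39, against -0.05 in method B, and 1 of them, Lef1, was called. Tcf7l1 was at 1.08 and 1.18 normalised CPM in the WT wells and 1.89 and 2.69 in the stabilized wells, and Tcf7l2 at 1.19 and 2.09 against 3.54 and 4.40. The interaction was called for all 4 factors, beside 15.3% of all genes. For each of Lef1, Tcf7, Tcf7l1 and Tcf7l2 both WT wells of method A lay below all 6 other libraries, beside 26.0% of all genes tested.

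Of 17 Wnt receptors and coreceptors tested, 1 was called higher and none lower, beside 5.39% and 0.918% of all genes. An adjusted p under 0.05 at any fold was reached by 5 that were higher and 2 that were lower, beside 29.2% and 26.8% of all genes, and the median log2 fold change was 0.06 (-0.09 with the length trend removed). The called gene was Lrp6, a coreceptor, which was at 56.2 and 77.5 normalised CPM in the WT wells and at 138 and 161 in the stabilized wells (log2 fold change 1.15 ± 0.16, adjusted p = 0.00168). Its call was lost with the length trend removed and without WT replicate 1. Fzd4, the main Frizzled receptor of retinal and brain ECs, was at 85.9 and 122 against 190 and 208, with a log2 fold change of 0.93 ± 0.16 (adjusted p = 0.0035), just under 2-fold. Reck, which with Adgra2 presents Wnt7 ligands to the receptor, had one of 0.98 ± 0.11 (adjusted p = 0.00109), whereas Adgra2 had -0.04 ± 0.08. Lrp5 had 0.59 ± 0.07, and Tspan12, an auxiliary protein of Fzd4, -0.33 ± 0.07. The wells of Fzd4, Reck, Lrp5 and Tspan12 did not overlap between the groups, and those of Adgra2 did. With 2 wells per group such separation says little, and its share over all genes was not counted.

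Among 19 tested members of the destruction complex and the nuclear coactivators, 3 were called higher and none lower, beside 5.39% and 0.918% of all genes. Their median log2 fold change was 0.36, or 0.16 with the length trend removed, and -0.19 in method B. Gsk3b, a kinase that marks beta-catenin for degradation, rose from 28.7 and 37.8 to 81.0 and 109 normalised CPM (log2 fold change 1.5 ± 0.18, adjusted p = 0.00128). Crebbp, a histone acetyltransferase that serves as a coactivator, rose by 1.15 ± 0.17 and Chd8, a chromatin remodeler that binds beta-catenin, by 1.11 ± 0.16 on the log2 scale. These genes act on both sides of the pathway. Both the Crebbp and the Chd8 call were lost with the length trend removed and without stabilized replicate 2, and that of Chd8 also with an offset for length. Of the 13 other Wnt targets and feedback genes tested, 1 was called higher, the transcription factor Myc, which rose from 7.56 and 9.69 to 27.3 and 27.7 (log2 fold change 1.65 ± 0.12, adjusted p = 5.35e-04). For Lrp6, Gsk3b, Crebbp, Chd8 and Myc the WT wells of method A lay below all 6 other libraries, beside 82.8% of the genes called higher. Their log2 fold changes in method B were negative (-0.15 to -0.46).

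The largest increase among the genes named by fold was that of Fbp1 (ENSMUSG00000069805.10, chr13:62864753-62888282), a fructose bisphosphatase of gluconeogenesis. It was at 0.702 and 0.620 normalised CPM in the WT wells, from 13 and 19 counts, and at 71.0 and 62.4 in the stabilized wells. The difference was 101-fold, or 6.67 ± 0.15 on the log2 scale (adjusted p = 2.71e-05). Fbp1 was also called higher in method B, from 4.72 and 6.29 to 25.3 and 30.8 (log2 fold change 2.32). The log2 fold changes of the methods differed by 4.33 (interaction, adjusted p = 4.5e-05). Both the lowest and the highest levels of Fbp1 in the 8 libraries were those of method A, and the deposited TPM was 0 in both libraries of acutely isolated ECs. Larger fitted changes of 2 genes were passed over, since reads of near-identical copies can be assigned to either. These were Gm10184, with 0 counts in both WT wells against 3077 and 2609 in the stabilized wells (at least 424-fold higher, taking 3 counts per well as the floor), and Eno1b, with 4 and 0 against 17175 and 16838, and Rps16, with 83 and 322 against 9143 and 9113, was left out for the same reason.

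Next in size were Ecm1, a secreted matrix glycoprotein, and Gpx3, a secreted glutathione peroxidase. Ecm1 rose from 5.83 and 9.43 to 99.6 and 116 normalised CPM (log2 fold change 3.78 ± 0.21, adjusted p = 3.61e-04), while in method B it was at 67.3 to 94.2 in all 4 libraries. Gpx3 rose from 7.61 and 9.33 to 73.7 and 71.3 (3.08 ± 0.11, adjusted p = 1.09e-04) and was also called in method B (1.32). For Ecm1 the WT wells of method A were the ones that stood apart, far below every other library.

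Itih5, a hyaluronan-binding heavy chain that belongs to the study's BBB genes, rose from 9.56 and 11.7 to 76.1 and 80.3 normalised CPM (2.86 ± 0.12, adjusted p = 1.82e-04). In method B its log2 fold change was 1.31 without a call. The proprotein convertase Furin rose from 17.0 and 29.4 to 151 and 162 (2.73 ± 0.23, adjusted p = 6.16e-04), with -0.08 in method B. The remaining genes of the 10 with the largest increases were S100a11, a calcium-binding protein, Txn2, the mitochondrial thioredoxin, Scamp3, a secretory carrier membrane protein, Aldh1a1, a retinaldehyde dehydrogenase, and Msn, which links the membrane to actin. Their log2 fold changes ran from 2.51 (Msn) to 2.64 (S100a11) in method A and from -0.18 to 0.46 in method B. For all 5 the order of levels was the same, with the WT wells of method A lowest, the stabilized wells of method A next and the 4 libraries of method B highest, as for Msn at 220 and 365, then 1546 and 1789, then 2892 to 3555 normalised CPM.

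**Figure D4:**
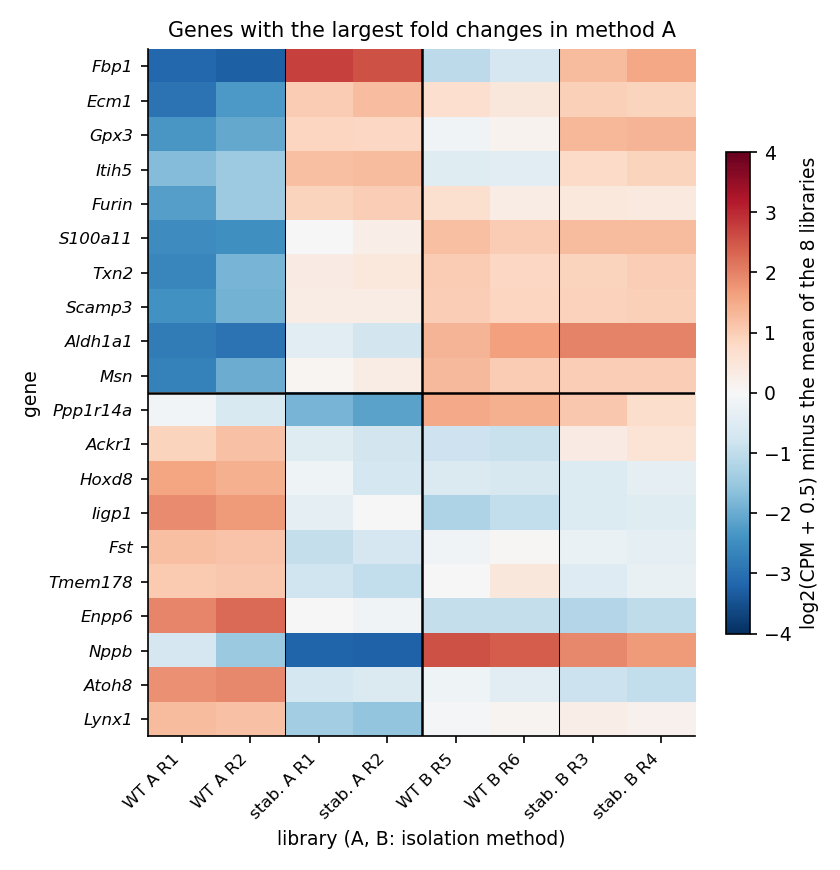
Level of the 10 genes with the largest increases and the 10 with the largest decreases among the called genes of method A, as log2(CPM + 0.5) minus the mean of the gene over the 8 libraries (color scale). For all 10 increased genes the WT wells of method A are the lowest of the 8 libraries, and for Lynx1 the libraries of method B (38.8 to 48.6 normalised CPM) lie between the groups of method A.

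Among the most abundant genes called higher were Fth1, the heavy chain of ferritin, Angpt2, a Tie2 ligand made by activated ECs, and Fn1, fibronectin. Fth1 rose from 414 and 571 to 2032 and 2088 normalised CPM (log2 fold change 2.06 ± 0.15, adjusted p = 5.04e-04). Angpt2 rose from 2419 and 3253 to 6157 and 5991 (1.09 ± 0.14, adjusted p = 0.00142), with 0.86 in method B, and Fn1 from 3891 and 4357 to 8187 and 12680 (1.34 ± 0.21, adjusted p = 0.00261), with -0.17 in method B. Col4a2, a chain of basement membrane collagen, rose by 1.07 ± 0.09 and Tmsb10, which binds actin monomers, by 1.24 ± 0.10. Of these 5, the calls of Angpt2, Fn1 and Col4a2 were lost with the length trend removed, that of Angpt2 also with library size scaling and without WT replicate 1, that of Fn1 also without stabilized replicate 2, and that of Col4a2 also with library size scaling and with an offset for length. Fth1 and Tmsb10 have near-identical pseudogenes, to which some of their reads could have been assigned.

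Among the called genes, decreases were fewer and smaller than increases. Both depend on the TPM minimum, without which 361 genes were lower and 1173 higher. Eps8l1, which the minimum kept from a call, had a log2 fold change of -5.555 ± 0.243. Lynx1 (ENSMUSG00000022594.14, chr15:74747852-74753046), which modulates nicotinic acetylcholine receptors, fell from 98.3 and 91.7 to 15.3 and 13.4 normalised CPM (log2 fold change -2.73 ± 0.10, 6.65-fold, adjusted p = 1.09e-04). The 4 libraries of method B lay between these groups at 38.8 to 48.6, with a log2 fold change of 0.18. Atoh8, a basic helix-loop-helix factor, fell from 82.4 and 87.6 to 14 and 15.2 (-2.55 ± 0.09), and here the stabilized wells were level with method B (11.5 to 20.2) while the WT wells stood above. The natriuretic peptide gene Nppb fell from 13.0 and 7.15 to 1.83 and 1.80 (-2.46 ± 0.30), far below the 70.1 to 124 of method B in all 4 wells.

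Enpp6, a choline phosphodiesterase, Tmem178, Fst, an antagonist of activin, Iigp1, an interferon-inducible GTPase, the homeobox gene Hoxd8, Ackr1, a chemokine-binding receptor of venular ECs, and Ppp1r14a, an inhibitor of myosin phosphatase, made up the 10 largest decreases, from -1.84 (Ppp1r14a) to -2.23 (Enpp6) on the log2 scale. In method B they ranged from -0.75 (Tmem178) to 1.51 (Ackr1), and none was called there. For 6 of the 7, all but Ppp1r14a, the WT wells of method A lay above all 6 other libraries, beside 73.7% of the genes called lower. The most abundant genes called lower were the chaperone Hspa8, which fell from 4044 and 3477 to 1801 and 1731 normalised CPM (-1.1 ± 0.10, adjusted p = 7.25e-04), the membrane protein Tm4sf1 (-1.05), the esterase Esd (-1.22), the actin-severing protein Dstn (-1.05) and the kinase Sgk1 (-1.32). The calls of Hspa8, Tm4sf1, Esd and Dstn were lost with the length trend removed, those of Hspa8, Tm4sf1 and Dstn also without WT replicate 1, and those of Hspa8 and Tm4sf1 also with an offset for length.

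A small group of genes was called in the same direction by both methods. Cxcr4, the receptor for the chemokine Cxcl12 and a marker of sprouting tip cells, was at 61.4 and 71.5 normalised CPM in the WT wells of method A and rose to 263 and 235 (log2 fold change 1.90 ± 0.10, adjusted p = 3.11e-04). In method B it rose from 10.1 and 13.9 to 68.8 and 89.3 (2.70). The homeobox gene Hlx rose by 1.83 ± 0.15 in method A and by 1.69 in method B, Dll4, the Notch ligand of tip and arterial ECs, by 1.66 ± 0.17 and 1.93, and the receptor tyrosine kinase Kit by 1.79 ± 0.14 and 1.63. The log2 fold change of Cxcr4 was smaller in method A by 0.82 (interaction, adjusted p = 0.0162), which is under the fold needed for a call. The interaction was 0.12 for Hlx (adjusted p = 0.691), -0.29 for Dll4 (adjusted p = 0.366) and 0.13 for Kit (adjusted p = 0.627), and it was called for none of these 4. In each of them both stabilized wells of method A lay above all 6 other libraries, beside 37.9% of the genes called higher. The WT wells of method A were not below the others. Perp, a desmosome component, was the counterpart among the decreases, from 24.6 and 19.6 to 10.1 and 9.86 in method A (-1.15 ± 0.13, adjusted p = 0.00111) and with -1.16 in method B, although its call in method A was lost without WT replicate 1.

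Tip cell genes, expressed by ECs that lead a sprout, and genes of fenestrated vessels formed a list of 11. Of these, 4 were called higher and none lower in method A (median log2 fold change 0.77), beside 5.39% and 0.918% of all genes, and 4 were called higher in method B (median 0.60), beside 1.08%. The 4 of method A were Cxcr4, Dll4, Angpt2 and Esm1, a secreted proteoglycan of sprouting ECs, and 3 of them were also called in method B. Esm1 rose from 79.2 and 90.5 to 178 and 186 normalised CPM (1.09 ± 0.09, adjusted p = 5.82e-04) in method A. In method B it rose from 14.7 and 17.1 to 111 and 115 (2.81), so that its log2 fold change was smaller in method A by 1.74 (interaction). The WT wells of method A began at a higher level of Esm1 than those of method B. In the Notch pathway, 2 of 10 genes were called, Dll4 and the receptor Notch4, which rose from 262 and 324 to 767 and 721 (1.34 ± 0.11) and whose call was lost with the length trend removed.

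Barrier genes changed in both directions. Of 9 tight junction genes tested, 2 were called higher and none lower, beside 5.39% and 0.918% of all genes. Their median log2 fold change was 0.44 in both methods, and 0.04 in method A with the length trend removed. Tjp1, the scaffold that ties claudins to actin, rose from 239 and 296 to 949 and 999 normalised CPM (1.86 ± 0.12, adjusted p = 4.52e-04), above the 431 to 689 of method B, and Marveld2, a protein of tricellular junctions, rose from 14.4 and 16.4 to 39.4 and 37.5 (1.31 ± 0.09). Cldn5, the main claudin of the BBB, was at 734 and 733 in the WT wells and 712 and 586 in the stabilized wells, a log2 fold change of -0.18 ± 0.10 (adjusted p = 0.16), against 1.04 with a call in method B. Ocln had -0.50 ± 0.07 (adjusted p = 0.00225) in method A and 0.66 in method B, and Cldn12 -0.89 and -0.76. The interaction was called for Cldn5 (-1.24), Ocln (-1.18) and Tjp1 (1.24).

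Among 20 solute carriers of the BBB, 2 were called higher and 2 lower, beside 5.39% and 0.918% of all genes. Their median log2 fold change was -0.29, against 0.47 in method B. The amino acid transporters Slc7a5 and Slc7a1 rose by 1.22 ± 0.08 and 1.48 ± 0.13 on the log2 scale. The call of Slc7a5 was lost with the length trend removed and that of Slc7a1 with an offset for length. Slco1a4, an organic anion transporter of brain capillaries, fell from 147 and 175 to 58.5 and 52.5 normalised CPM (-1.54 ± 0.10, adjusted p = 4.62e-04), while in method B it rose from 15.9 and 19.5 to 45.5 and 47.1 (1.37). The thyroid hormone transporter Slco1c1 fell from 21.3 and 27.6 to 11.7 and 10.2 (-1.17 ± 0.14) and had 1.04 in method B without a call, and its call in method A was lost without WT replicate 2. For both Slco genes the stabilized wells of the methods lay closer to each other than the WT wells did. Of 8 ABC transporters, 1 was called, Abca3 (1.2 ± 0.09), and of 6 caveolar genes Ehd2 (1.05 ± 0.15), both higher, beside 5.39% of all genes. Both calls were lost with the length trend removed, and that of Ehd2 also with library size scaling, without stabilized replicate 2 and without WT replicate 1.

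In the study's longer lists, 29 of 271 BBB genes tested were called higher and 2 lower (median log2 fold change 0.20), and 24 of 154 pan-endothelial genes higher and 1 lower (0.25), against 692 and 118 of 12848 and 0.01 over all genes. With the length trend removed the medians were 0.05 and 0.15. These lists were built from acutely isolated cells of several organs. Of the 13 pan-endothelial markers, 2 were called higher and none lower. At an adjusted p under 0.05, 7 were higher and 3 lower, beside 29.2% and 26.8% of all genes. Their median log2 fold change was 0.31, or 0.02 with the length trend removed. Of the called markers, Cdh5, the adhesion molecule of endothelial junctions, rose from 946 and 1155 to 2652 and 2716 normalised CPM (1.35 ± 0.11, adjusted p = 6.16e-04). The TGF-beta coreceptor Eng rose from 299 and 423 to 898 and 964 (1.36 ± 0.16). The Cdh5 call was lost with the length trend removed. Among 13 arterial and venous genes, 1 was called higher and 1 lower, beside 5.39% and 0.918% of all genes. At an adjusted p under 0.05, 2 were higher and 6 lower, beside 29.2% and 26.8% of all genes. Their median log2 fold change was -0.26, against 1.39 in method B. Efnb2, an ephrin of arterial ECs, rose by 2.03 ± 0.20 and the venular Ackr1 fell by 1.85 on the log2 scale.

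BMP and TGF-beta genes were called in both directions, 3 of 15 higher and 3 lower, beside 5.39% and 0.918% of all genes. The ligands Tgfb1, Tgfb2 and Bmp2 rose, with Tgfb1 from 15.3 and 21.4 to 65.4 and 64.9 normalised CPM (1.81 ± 0.15, adjusted p = 6.16e-04), Tgfb2 by 1.51 ± 0.07 and Bmp2 by 1.32 ± 0.18. The intracellular response genes Id2, Smad6 and Id3 fell, with Id2 from 23.4 and 24.1 to 6.38 and 7.11 (-1.82 ± 0.11, adjusted p = 3.81e-04), Smad6 by 1.27 and Id3 by 1.07 on the log2 scale. In method B none of these 6 was called. The WT wells of method A lay outside all 6 other libraries for each of the 6. Over all calls this held for 82.8% of the higher genes (WT below) and 73.7% of the lower genes (WT above). The Id3 call was lost with the length trend removed and without WT replicate 1.

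Of 17 collagen and basement membrane genes, 4 were called higher and none lower, beside 5.39% and 0.918% of all genes. Their median log2 fold change was 0.55, and 0.21 with the length trend removed. Besides Col4a2 these were the laminin chain Lamc1, which rose from 381 and 473 to 1109 and 1223 normalised CPM (1.45 ± 0.12), the heparan sulfate proteoglycan Hspg2 (1.36 ± 0.15) and the fibrillar collagen chain Col1a1. The call of Hspg2 was lost with the length trend removed. Col1a1 was at 18.5 and 28.3 in the WT wells and at 47.5 and 107 in the stabilized wells (1.71 ± 0.39, adjusted p = 0.0105), and its call was lost without stabilized replicate 2 and without WT replicate 1. Col1a1 is also a fibroblast marker, and the 6 fibroblast markers summed to 43.9 and 59.3 TPM in the WT wells and to 50.0 and 118 in the stabilized wells, against 246 to 286 in GFP-negative cells. Of 12 genes of the mesenchymal transition, Fn1 was called higher and Cnn1, calponin of smooth muscle, lower (-1.08 ± 0.21), the latter with a sum of the 5 smooth muscle markers of 1072 to 1550 TPM in the WT wells and 753 to 861 in the stabilized wells. The call of Cnn1 was lost with the length trend removed, with an offset for length and without WT replicate 1. The part of such cells in these values was not tested.

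The lists of growth and inflammation are read beside the 6.3% of all genes called in method A. At an adjusted p under 0.05 in edgeR's test, 29.2% of all genes were higher and 26.8% lower. The share of all genes at an unadjusted p under 0.05 was not counted. None of 15 mitosis genes was called by edgeR or DESeq2 (4 higher and 7 lower at an unadjusted p under 0.05 in edgeR's test, median log2 fold change -0.27), against 2 higher and a median of 1.05 in method B. At an adjusted p under 0.05, 4 of them were higher and 5 lower in method A. Of 14 DNA replication genes, Rrm2, a subunit of ribonucleotide reductase, was called higher (1.1 ± 0.23) beside a list median of -0.37, and its call was lost with library size scaling, without stabilized replicate 2 and without WT replicate 1. Of 17 interferon-stimulated genes, 2 were called higher, Isg15 and Stat2 (1.46 ± 0.32 and 1.45 ± 0.13), and 1 lower, Ifit3 (-1.08 ± 0.14), with a median of -0.21 in method A and 0.67 in method B. The Ifit3 call was lost without WT replicate 1. None of the 8 MHC class I genes was called by edgeR or DESeq2 (median -0.49, or -0.21 with the length trend removed, method B 0.55). In edgeR's test 5 were lower and 1 higher, both at an unadjusted and at an adjusted p under 0.05. The adhesion molecule Icam1 was the called member of 12 genes of chemokines, cytokines and adhesion, and it fell from 450 and 489 to 207 and 203 normalised CPM (-1.2 ± 0.08, adjusted p = 4.55e-04).

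In the other lists, likewise beside 6.3% of all genes, 2 of 11 immediate early genes were called higher, Egr1 (1.71 ± 0.20) and Ier2 (1.07 ± 0.16), and 1 of 10 YAP and TEAD targets lower, Ankrd1, which fell from 294 and 211 to 78.8 and 85.5 normalised CPM (-1.63 ± 0.16, adjusted p = 8.19e-04). The call of Ier2 was lost with an offset for length, with library size scaling, without stabilized replicate 1 and without WT replicate 1. Of 14 genes of cholesterol synthesis, Fdps, the farnesyl diphosphate synthase, fell by 1.38 and the demethylase Cyp51 by 1.18 on the log2 scale. At an adjusted p under 0.05, 9 of the 14 were lower and 3 higher, beside 26.8% and 29.2% of all genes (median -0.40, method B 0.26). Of 15 glycolysis genes, Hk1, hexokinase, was called higher (1.19 ± 0.09) beside a median of -0.10, and its call was lost with the length trend removed. None of 6 laminar flow genes was called by edgeR or DESeq2. In edgeR's test 2 were higher and 1 lower, both at an unadjusted and at an adjusted p under 0.05.

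Most marker lists of other cells were low in all wells beside the GFP-negative cells, and some moved with the groups. Of 6 astrocyte markers, Aqp4 was at 0 in all 4 wells, and the sum of the list was 9.27 and 14.2 TPM in the WT wells and 36.5 and 39.6 in the stabilized wells, against 3181 and 7482 in GFP-negative cells. Most of it was the gap junction gene Gja1, which is also found in ECs and which rose from 8.42 and 15.6 to 39.3 and 42.2 normalised CPM (1.73 ± 0.24, adjusted p = 0.00177). The 7 neuronal markers summed to 35.7 and 36.7 TPM in the WT wells and to 17.2 and 19.4 in the stabilized wells, with Snap25, Syt1 and Slc17a7 at 0 in the WT wells. The neuronal tubulin Tubb3 made up most of it and fell from 29.4 and 30.4 to 7.24 and 9.82 normalised CPM (-1.82 ± 0.16, adjusted p = 6.16e-04), and in method B it was under 0.66 in all libraries. Microglial markers summed to at most 12.9 TPM (GFP-negative 248 and 268), with P2ry12 at 0 in all 4 wells, pericyte markers to 12.7 and 15.1 in WT and 15.5 and 33.6 in the stabilized wells (GFP-negative 843 and 1564), and hemoglobin genes with Alas2 to at most 0.21. The 7 oligodendrocyte markers summed to 25.7 to 26.2 in WT and 33.8 to 34.3 in the stabilized wells. The 4 lymphatic markers summed to 48.4 and 58.9 against 99.8 and 108, and to 22.7 and 51.1 in GFP-negative cells. Most of that sum was Flt4, also in the tip cell list, at 37.6 and 47.3 against 87.3 and 94.2 TPM. Pdpn was higher too (2.84 and 3.07 against 5.67 and 7.16). Lyve1 was lower (7.88 and 8.47 against 6.69 and 6.82), and Prox1 was at most 0.113. The part of other cells in the results was not tested beyond these values.

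The fold changes of method A depended on transcript length. Over 5 bins of equal gene number by effective length, the length over which a fragment can start, the median log2 fold change went from -0.33 in the bin of the shortest transcripts (median 778 bases) through -0.16, -0.03 and 0.16 to 0.42 in the bin of the longest (median 4650 bases). In method B the medians of the same bins lay between -0.04 and 0.01. The share of genes called higher went from 3.46% in the shortest bin to 8.68% in the longest, and the share called lower from 2.68% to 0.156%. Set against method B, the WT wells of method A went from 0.12 to -0.26 and the stabilized wells from -0.18 to 0.12, so that both groups carried the trend, in opposite directions. When each library's trend on length was removed, 543 genes were called higher and 75 lower, and 469 of the 692 (67.8%) and 55 of the 118 (46.6%) kept their call. Among the genes above, Fbp1, Ecm1, Gpx3, Apcdd1, Lef1, Tjp1, Cxcr4, Dll4, Kit, Lynx1, Atoh8, Id2 and Slco1a4 were called under each of the 13 alternatives tried. Of these alternatives, dropping the TPM minimum and rescaling TPM over protein-coding genes could not remove a call. GC content moved the median less, from -0.14 to 0.09 over 5 such bins. The share called higher still went from 2.37% in the bin of lowest GC to 7.35% in the highest. The share called lower was 1.32% and 0.623% in these bins. With the length trend removed, the medians by GC went from -0.19 to 0.12.

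**Figure D5:**
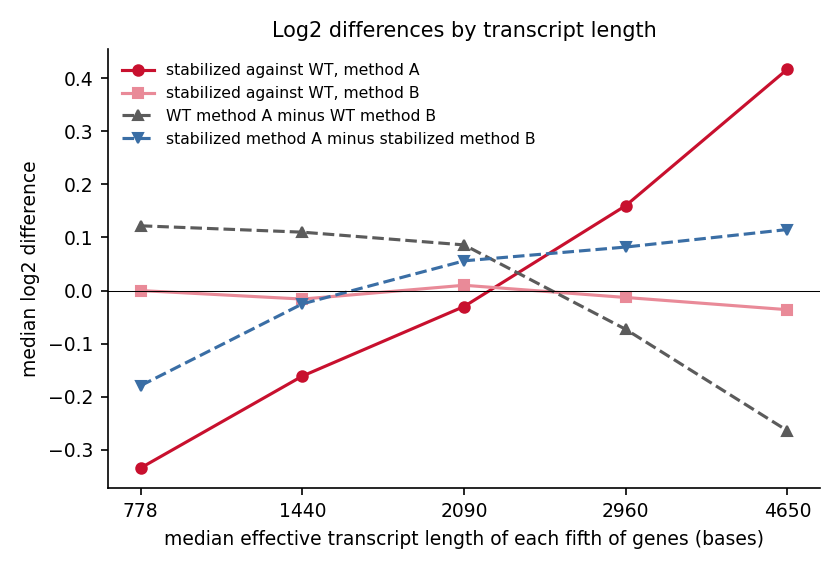
Median log2 difference (y axis) in 5 bins of equal gene number by effective transcript length (x axis, median of each bin in bases). Stabilized against WT in method A goes from -0.33 to 0.42, the same comparison in method B stays near 0, and the WT and stabilized wells of method A set against method B slope in opposite directions.

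The position of genes and the strain markers were also examined, since flex3 was carried by the stabilized mice alone in method A. Within 10 Mb of Ctnnb1, 2 of 81 genes tested were called (2.47%), and over the autosomes and X the share ran from 4.63% (X) to 8.92% (chromosome 15), beside 6.3% in all. On the Y chromosome 3 of 6 genes were called, all higher (Ddx3y, Uty and Eif2s3y, by 1.09 to 1.19 on the log2 scale). The call of Ddx3y was lost with the length trend removed, and that of Eif2s3y with library size scaling and without WT replicate 2. Of 13 mitochondrial genes 3 were called (23.1%), all higher, namely mt-Nd2, mt-Cytb and mt-Nd4, by 1.63, 1.62 and 1.39 on the log2 scale, named after their values were seen and not called in method B. Of 7 genes listed as dependent on the mouse strain, 1 was called, Wdfy1, which was at 22.5 and 20.9 normalised CPM in the WT wells, 58.4 and 56.4 in the stabilized wells and 125 to 209 in method B, and its call was lost with an offset for length. Ifi202b had a log2 fold change of 2.07 ± 0.18 in method A and 2.32 in method B, below the TPM minimum in both.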

How the data were processed

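RNA-seq was analysed in 8 cultured libraries of 36 cycles, 4 of them by method A, with the libraries of acutely isolated and GFP-negative cells for reference levels. The authors quantified reads with Salmon 0.14.0 on GENCODE M21 transcripts (GRCm38), and the deposited files list 140198 transcripts, each with its estimated count, TPM and effective length. The expected counts were deposited without normalization. TPM was scaled by the authors over all RNA, so that it is lowered where ribosomal RNA is abundant (protein-coding genes held 36.2% and 46.9% of the TPM in the WT wells of method A and 61.5% and 64.9% in the stabilized wells).

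Counts were summed per gene, rounded and kept for 21820 protein-coding genes, and were tested in R 4.3.3 with edgeR 4.0.16 (filterByExpr, TMM, glmQLFit and glmQLFTest, Benjamini-Hochberg adjustment), for each method on its own 4 libraries and for the interaction on all 8. Standard errors come from the F statistic. The study used EBSeq with the same fold and TPM minimum. Standard errors include the spread between wells, while the floor of 3 counts covers counting error only. All pairs of wells differed by more than sampling noise. Replicate numbers do not pair the wells, since same-numbered deviations had r = 0.0746. Sequence and coordinates of exon 3 are from the GRCm38 reference. Alternatives were DESeq2 1.42.0, other scalings, an offset for length, filters, a replicate block and leaving out each well. Removal of a length trend and TPM rescaled over protein-coding genes were added after seeing the data. The scripts were tested on simulated data.

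Named were the targets of the study, receptors, TCF/LEF factors and tight junction genes, among called genes the 10 largest by fold and the 5 most abundant in each direction, the 5 with the largest smaller fold in both methods, the 5 with the largest interaction, and up to 6 called members of each list, passing over predicted genes and near-identical families. The members and lists were chosen with earlier results of these data known. ATAC-seq files were not used here.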

Additional observations from a re-analysis of the deposited data

Results flagged for a closer look

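The difference between stabilized and WT wells was not the same in both methods in an interaction test on the 8 libraries. It was higher in method A than in method B for 1214 genes and lower for 835. The values that follow are the log2 fold change in method A minus that in method B, each past an adjusted p of 0.05 in edgeR's quasi-likelihood test and over 1 in size. Strain, sex transcripts and RNA composition also differ between the methods, and their part in these differences was not tested.

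In the Wnt pathway the difference was 1.95 for Lef1, 1.65 for Tcf7, 1.09 for Tcf7l1, 1.21 for Tcf7l2, 1.43 for Lrp6, 1.75 for Gsk3b, 1.58 for Crebbp, 1.23 for Chd8, 2.06 for Myc and -1.06 for Spock2. Among the genes with the largest increases it was 4.33 for Fbp1, 3.41 for Ecm1, 1.74 for Gpx3, 1.53 for Itih5, 2.78 for Furin, 2.49 for S100a11, 2.55 for Txn2, 2.50 for Scamp3, 2.05 for Aldh1a1 and 2.66 for Msn. Phactr4, a regulator of actin and phosphatase activity, had 2.83. Of the abundant genes, Fth1 had 1.43, Fn1 1.48 and Tmsb10 1.10.

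Among the decreases the difference was -2.93 for Lynx1, -1.93 for Atoh8, -1.76 for Nppb, -2.09 for Enpp6, -1.41 for Tmem178, -1.83 for Fst, -2.82 for Iigp1, -2.28 for Hoxd8, -3.38 for Ackr1, -1.24 for Ppp1r14a, -1.05 for Tm4sf1, -1.06 for Esd and -1.05 for Dstn. Of the barrier genes, Slco1a4 had -2.94, Slco1c1 -2.23, Cldn5 -1.24, Ocln -1.18, Tjp1 1.24 and Slc7a1 2.05.

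For genes of vessels and signaling it was -1.74 for Esm1, 1.03 for Notch4, 2.31 for Efnb2, 1.26 for Eng, 1.23 for Cdh5, -1.27 for Id2, -1.0 for Id3, 1.78 for Tgfb1, 1.07 for Tgfb2 and 1.81 for Bmp2. Inflammatory and immediate early genes had -2.08 (Ifit3), -1.07 (Icam1), 1.56 (Egr1) and 1.09 (Ier2). The remaining values were -1.07 for Cnn1, 1.87 for Col1a1, 1.16 for Hspg2, 1.42 for Hk1, -1.77 for Fdps, -1.40 for Cyp51, 1.71 for Gja1, 2.06 for Wdfy1 and -2.39 for Tubb3.

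Outside the protein-coding genes that were tested, Xist had 2512 and 4306 counts in the WT wells of method A, all labelled male, while the stabilized wells of method A had 0 and 2.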

How the results depend on the processing

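The 692 higher and 118 lower calls of method A became 1173 and 361 without the TPM minimum, and the lower calls 178 with TPM over protein-coding genes, 75 with the length trend removed and 187 with library size scaling. In method B, 138 and 36 became 517 and 223 without the TPM minimum and 208 and 57 with TPM over protein-coding genes. The 29 genes called alike in both methods became 123 without the TPM minimum. TPM over protein-coding genes and the length trend were chosen after seeing the data. Leaving out 1 well gave 520 to 887 higher and 106 to 194 lower calls in method A (194 without WT replicate 2), and in the fits of 3 libraries the lone well is assumed to vary like the others. For the genes called alike the range was 23 to 30. The log2 fold change of Spock2 reversed to -0.11 with the length trend removed. The replicate block, whose numbers did not pair the wells, gave 699 and 117 calls. Of 83 named genes called, 54 were called under each of 13 alternatives, and 20 lost their call with the length trend removed and 13 without WT replicate 1. Dropping the TPM minimum and rescaling TPM over protein-coding genes, both among the 13, could not remove a call. Interaction counts stayed within 1.5 times. Beyond the length and scaling settings given here, the cause of these shifts was not tested. Variation between animals could not be measured with wells as replicates.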
